A study of Mus musculus with 60 samples.

Results

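The genes described here are 10 genes of MHC class I antigen presentation and the immunoproteasome: H2-D1, H2-K1, B2m, Tap1, Tap2, Tapbp, Psmb8, Psmb9, Psme1 and Psme2. They were found by gene symbol, or by current symbol through the Entrez identifier, in the 2 value tables of a mouse cell line study on spotted 2-colour arrays. The tables held 15 rows for 9 of the 10 genes, which reduce to 10 distinct probes among 21689 in all, because rows with identical values were counted once. Psme2 had no matching row and was not analysed here. Psmb8 had 2 distinct probes and each of the other genes had 1. The probes of Psmb8, Psmb9, Psme1 and B2m were on array part I, and those of H2-D1, H2-K1, Tap1, Tap2 and Tapbp on part II.

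The study compared 5 mouse cell lines. IM2 was not transfected with Pabpn1. Wild-type Pabpn1 was carried at a high labelled level by WTA and at a low one by WTD, and mutant Pabpn1 likewise by D7E (high) and D7F (low). The Pabpn1 protein coats new poly(A) tails in nuclei, and the labels name oculopharyngeal muscular dystrophy (OPMD), which in people is caused by a lengthened alanine stretch in that protein. Each line was grown as 3 cultures, and its RNA was co-hybridised with that of a shared IM2 reference in both dye orientations on each part, giving 60 arrays of 15 cultures. The labels do not give the tissue the lines came from, how IM2 was established as a line or whether it already held another transgene, the mutation, the promoter of the transgene, or whether a line is 1 clone. Each form and level of Pabpn1 is represented by 1 line, so a difference between lines cannot be told apart from a difference between forms or levels. None of the 5 lines is labelled as transfected without Pabpn1. In differences from IM2, Pabpn1 therefore cannot be told apart from transfection or from the separate derivation of the lines. Part I is labelled total RNA and part II polyA RNA for every line.

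Class I molecules show short peptides from inside the cell on its surface. The proteasome cuts proteins into peptides, the TAP transporter carries these into the endoplasmic reticulum, and chaperones load them onto a heavy chain paired with beta-2-microglobulin. In many cell types interferons raise the genes of this route together, and then Psmb8 and Psmb9 replace constitutive catalytic subunits of the proteasome to form the immunoproteasome, while Psme1 and Psme2 make up its PA28 activator. Healthy skeletal muscle fibres carry little class I.

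Promoter sequences of 4 members are shown because 3 of these genes gave the values on which the results turn and H2-K1 is the near copy of H2-D1. They were taken from RefSeq, which held 9 of the 10 members for build GRCm38.p6. Tap2 was not matched. Each window is the 250 bases before an annotated transcription start. Capitals mark matches, on either strand, to AANNGAAA (the core of interferon-stimulated response elements), GGGNNNNNCCC (the outer bases of kappa B elements) and TGACG (the core of cyclic AMP response elements). The motifs were chosen after the member sequences had been seen.

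The windows lie at chr17:35262844-35263093 on the plus strand for H2-D1, chr17:34000334-34000583 on the minus strand for H2-K1 (1 of its 2 annotated starts), chr2:122147437-122147686 on the plus strand for B2m and chr17:34197945-34198194 on the plus strand for Psmb8.
H2-D1: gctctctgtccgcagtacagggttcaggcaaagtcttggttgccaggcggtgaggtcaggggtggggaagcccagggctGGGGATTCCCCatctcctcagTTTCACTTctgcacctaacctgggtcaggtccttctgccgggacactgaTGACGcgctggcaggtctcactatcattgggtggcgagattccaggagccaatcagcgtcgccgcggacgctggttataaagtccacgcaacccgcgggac
H2-K1: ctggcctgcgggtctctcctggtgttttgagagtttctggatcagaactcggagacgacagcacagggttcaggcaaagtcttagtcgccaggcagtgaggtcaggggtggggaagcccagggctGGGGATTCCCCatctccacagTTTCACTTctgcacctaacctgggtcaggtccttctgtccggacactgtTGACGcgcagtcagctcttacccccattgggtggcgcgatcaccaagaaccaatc
B2m: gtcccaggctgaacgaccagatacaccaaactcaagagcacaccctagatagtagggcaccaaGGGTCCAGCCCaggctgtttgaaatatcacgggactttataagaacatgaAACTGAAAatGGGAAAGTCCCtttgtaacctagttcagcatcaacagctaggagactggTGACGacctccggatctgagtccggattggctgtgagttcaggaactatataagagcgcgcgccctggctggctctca
Psmb8: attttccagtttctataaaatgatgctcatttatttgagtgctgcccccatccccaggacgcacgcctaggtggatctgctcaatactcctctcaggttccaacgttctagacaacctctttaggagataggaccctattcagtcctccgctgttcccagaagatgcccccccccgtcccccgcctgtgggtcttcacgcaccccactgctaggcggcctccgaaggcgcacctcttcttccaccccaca

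The H2-D1, H2-K1 and B2m windows each held all 3 motifs, whereas the Psmb8 window held none of them. Among 32841 mouse promoter windows of the same length, 21.3% held AANNGAAA, 12.2% held GGGNNNNNCCC, 17.8% held TGACG and 0.286% held all 3. In the H2-D1 window GGGNNNNNCCC spans bases 171 to 161 before the start, AANNGAAA bases 150 to 143 and TGACG bases 101 to 97. H2-D1 and H2-K1 were identical at 169 of 204 bases (82.8%) when the windows were aligned without gaps. The windows of Psmb9 and Tap1, whose starts face away from each other, share 225 bases, and each held GGGNNNNNCCC and TGACG but not AANNGAAA. The windows of Tapbp and Psme1 held none of the motifs. A match is a string of letters and does not show that a factor binds there.

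The deposited values are log ratios that stop at -2 and 2. They were taken to be log10 ratios of culture over reference, converted to log2, and averaged over the dye orientations of a culture. Sizes and folds below hold only for base 10. A probe was tested with limma where at least 2 cultures of every line had both orientations inside the limits, which 9706 probes did. Benjamini-Hochberg adjusted p under 0.05 was the threshold, and a probe past it is said to have risen or fallen. Pabpn1, the gene the lines were made to carry, had log2 ratios of 2.19 ± 0.29 in WTA (SD, n = 3 cultures), 1.61 ± 0.14 in D7E, 1.43 ± 0.07 in WTD and 0.92 ± 0.11 in D7F, against -0.18 ± 0.06 in IM2. It was positive on all 24 part I arrays of the transfected lines, which is the basis for the direction of the ratios on part I, while part II has no such marker. The share of rows measured inside the limits ranged from 62.9% to 99.0% of an array on part I and from 36.9% to 94.7% on part II. Of the 8 arrays under 65%, 5 were of IM2 and 7 were on part II, where 4 of the 6 IM2 arrays lay between 36.9% and 64.8%, and the part II differences from IM2 (H2-D1, Tap2 and Tapbp) rest on these arrays. Across probes, the dye orientations of 1 culture correlated with a median r of 0.13 (part I) and 0.12 (part II) in the 12 transfected cultures, and of -0.23 and -0.09 in the 3 IM2 cultures. Turning the sign of both orientations leaves these correlations as they are, so it does not address them. The direction of the IM2 ratios, however, has no marker, because both RNAs on those arrays are IM2. Differences from IM2 were therefore also computed with the IM2 ratios given the opposite sign. For called differences of the mean of the transfected lines, that value is printed where it ends the call or shrinks the size by about 1.5 times. Differences that did not pass, and those of single lines, can depend on that sign without the value being printed. Of the 10 member probes, 8 probes of 7 genes were tested, and H2-K1 and Tap1 were not.

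Psmb8, H2-D1, B2m and Tap2 were lower in the transfected lines than in IM2, and Psmb9, Tapbp and Psme1 did not pass the test. In all, 5 of 8 member probes fell and none rose, where 15.3% of all tested probes were called in this comparison and 8.85% were called lower. The median difference of the 8 probes was -0.45 on the log2 scale, against 0.03 for all tested probes. Psmb8 (2.53-fold by its probe 1) and H2-D1 (2.22-fold) changed most, ahead of Tap2 (1.34-fold) and B2m (1.33-fold). By its probe 2, Psmb8 differed by only -0.45 on the log2 scale, close to Tap2 and B2m. With the IM2 ratios given the opposite sign, H2-D1 was at -0.77 and B2m at -0.31. The plot of culture values shows each probe. The share of all tested probes whose transfected and IM2 cultures do not overlap is not given here, so such separation is only described.

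**Figure D1:**
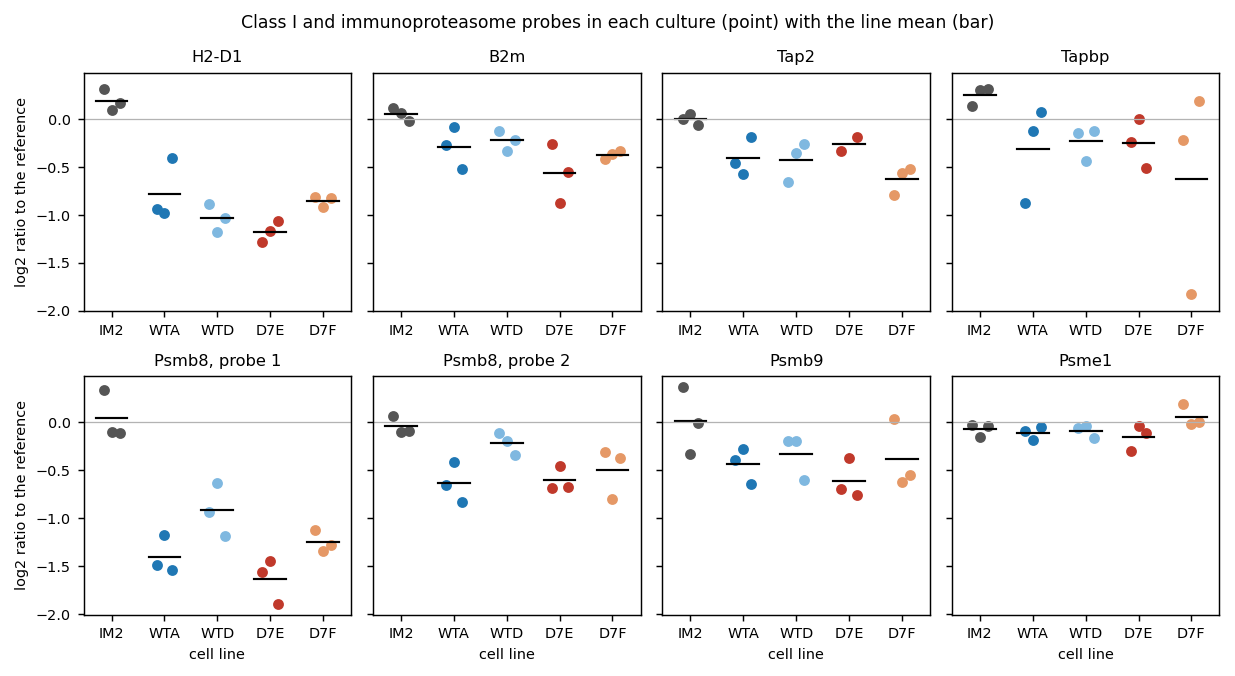
Log2 ratios to the IM2 reference (vertical axis) of the 8 tested member probes in 15 cultures of 5 lines (horizontal axis); each point is 1 culture and each bar the line mean. For H2-D1, both Psmb8 probes, B2m and Tap2 every measured transfected culture lies under all 3 IM2 cultures. For B2m this holds only for the IM2 sign as deposited. For Psmb9, Tapbp and Psme1 the groups overlap. The share of all tested probes without overlap is not given here.

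H2-D1 encodes a classical class I heavy chain, the peptide-binding subunit at the cell surface. Its log2 ratios in the IM2 cultures were 0.31, 0.09 and 0.17. They were -0.94, -0.98 and -0.41 in WTA, and -0.88, -1.18 and -1.03 in WTD. In D7E they were -1.28, -1.17 and -1.07, and in D7F -0.81, -0.91 and -0.83. All 12 transfected cultures were below all 3 IM2 cultures, with WTA culture 3 the closest to them (0.30 on its Cy5 array, -1.12 on its Cy3 array). The mean of the transfected lines was 1.15 lower (log2 difference -1.15, SE 0.13, limma adjusted p = 0.000108), a 2.22-fold lower level. With the IM2 sign turned it was -0.77 (adjusted p = 0.00153). The difference was -1.49 on arrays with the culture RNA in Cy3 and -0.81 with it in Cy5, and on the Cy5 arrays alone it did not pass (adjusted p = 0.0962). On those orientations IM2 itself was at 0.48 and -0.10. Mouse class I heavy chains are close in sequence, so a probe for one can take up RNA of others, and how much of this signal is H2-D1 was not tested.

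B2m encodes beta-2-microglobulin, the light chain that every classical class I heavy chain needs. Its log2 ratios were 0.11, 0.07 and -0.02 in IM2. In WTA they were -0.27, -0.08 and -0.52, in WTD -0.12, -0.33 and -0.21, in D7E -0.26, -0.87 and -0.55, and in D7F -0.42, -0.37 and -0.33. Every transfected culture was again below the IM2 cultures, an order that holds only for the IM2 sign as deposited. D7E culture 2 was the lowest. The mean difference was -0.42 (SE 0.12, limma adjusted p = 0.0360). This call is close to the threshold: it was lost without IM2 culture 1 (adjusted p = 0.114), 2 (0.0598) or 3 (0.0625), without WTD culture 2 (0.0535) or 3 (0.0523), and without D7F culture 1 (0.0501). With the IM2 sign turned it was -0.31 and not called (0.0955).

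Tap2 is 1 of the subunits of the TAP peptide transporter. Its log2 ratios were 0.00, 0.05 and -0.07 in IM2. They were -0.46, -0.57 and -0.18 in WTA, -0.66, -0.35 and -0.26 in WTD, -0.33 and -0.18 in cultures 2 and 3 of D7E, and -0.79, -0.56 and -0.52 in D7F. D7E culture 1 had 1 array at the lower limit and was left out of the fit. The 11 measured transfected cultures were all below IM2, by a mean of -0.42 (SE 0.12, limma adjusted p = 0.0363), and the call was lost without IM2 culture 1 (adjusted p = 0.0918), 2 (0.0674) or 3 (0.0652).

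Tapbp encodes tapasin, which tethers empty class I molecules to the transporter. Its ratios were 0.13, 0.30 and 0.32 in IM2, and between -0.87 and 0.18 in 11 of the transfected cultures. D7F culture 2 stood at -1.82, from -3.63 on its Cy3 array and -0.01 on its Cy5 array. The mean difference of -0.60 (SE 0.31) did not pass (limma adjusted p = 0.210). It was -0.99 on Cy3 arrays and -0.22 on Cy5 arrays, and -0.10 with the IM2 sign turned (adjusted p = 0.851). Of the 12 transfected cultures, 11 were below all IM2 cultures and D7F culture 3 was not, an order that holds only for the IM2 sign as deposited.

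H2-K1, the other classical heavy chain of these genes, and Tap1, the partner of Tap2, were measured too thinly for a test. No IM2 culture had both orientations inside the limits for either gene. For H2-K1, 3 of 6 IM2 arrays were inside the limits, at -0.59, -0.26 and 0.20. In the transfected lines 19 of 24 arrays were inside, 17 of them below 0, and another 4 were at the lower limit. They ranged from -6.12 in D7E to 3.95 in D7F. If 1 orientation was enough for a culture, the H2-K1 difference was -1.19 (SE 0.70, adjusted p = 0.353), so these data do not settle whether H2-K1 differed. For Tap1, 1 of 6 IM2 arrays and 11 of 24 transfected arrays were inside the limits, 6 of the 11 below 0, and the values ran from -2.60 to 2.50. No direction can be read for Tap1.

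**Figure D2:**
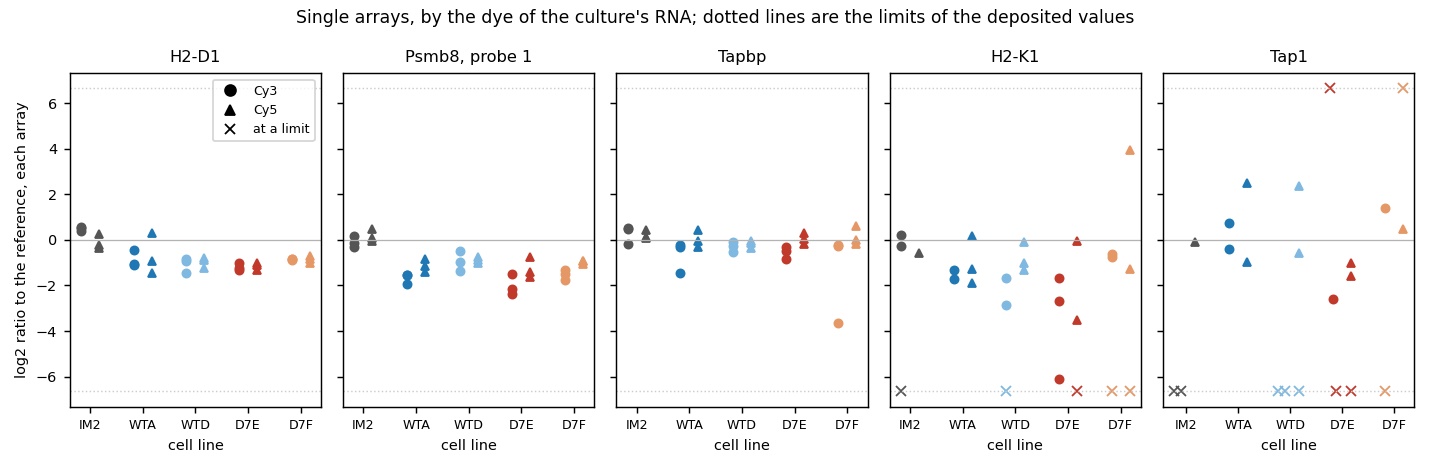
Log2 ratios to the reference (vertical axis) on single arrays for 5 member probes in the 5 lines (horizontal axis); circles have the culture RNA in Cy3, triangles in Cy5, and crosses are values at a limit of the deposited scale (dotted lines). In the transfected lines H2-D1 runs from -1.46 to 0.30 with 1 array above 0 and Psmb8 probe 1 from -2.36 to -0.49, Tapbp has 1 array of D7F at -3.63, and H2-K1 and Tap1 spread over most of the scale.

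Psmb8 encodes a catalytic subunit of the immunoproteasome, which takes the place of Psmb5. Its probe annotated NM_010724, called probe 1, had log2 ratios of 0.34, -0.10 and -0.11 in IM2. In WTA these were -1.48, -1.18 and -1.54, and in WTD -0.93, -0.63 and -1.18. In D7E they were -1.56, -1.44 and -1.89, and in D7F -1.12, -1.34 and -1.28. The highest transfected culture, WTD culture 2, was still below the lowest IM2 culture. The mean difference was -1.34 (SE 0.14, limma adjusted p = 0.000137), a 2.53-fold lower level and the largest of the 8 member probes. All 24 transfected arrays were below 0 in either dye, with differences of -1.44 in Cy3 and -1.24 in Cy5.

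The other Psmb8 probe, annotated AJ279951 and called probe 2, changed the same way by less. Its ratios were 0.07, -0.10 and -0.09 in IM2, -0.66, -0.42 and -0.84 in WTA, and -0.11, -0.20 and -0.34 in WTD. For D7E they were -0.69, -0.45 and -0.67, and for D7F -0.31, -0.80 and -0.37. WTD culture 1 lay just under the lowest IM2 culture. The mean difference was -0.45 (SE 0.12, limma adjusted p = 0.0253). It was no longer called without IM2 culture 1 (adjusted p = 0.0997) or 3 (0.0527). Over the 12 transfected cultures the 2 probes correlated with r = 0.79, as a description of values from the same arrays.

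Psmb9 encodes another catalytic subunit of the immunoproteasome, and shares the region between the genes with Tap1. Its ratios were 0.37, -0.33 and -0.01 in IM2, -0.39, -0.28 and -0.65 in WTA, -0.20, -0.19 and -0.60 in WTD, -0.70, -0.37 and -0.76 in D7E, and 0.03, -0.63 and -0.55 in D7F. The groups overlapped. IM2 culture 2 was at the level of several transfected cultures, and D7F culture 1 (0.03) was above IM2 culture 3 (-0.01). The difference of -0.45 (SE 0.17) did not pass (limma adjusted p = 0.102). Without IM2 culture 2 it was -0.62 and passed (adjusted p = 0.0348). Over the 12 transfected cultures Psmb9 correlated with Psmb8 probe 1 (r = 0.72) and probe 2 (r = 0.71), all 3 probes being on the same arrays, while H2-D1 and Psmb8 probe 1 gave r = -0.07.

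Psme1, the alpha subunit of the PA28 activator, showed no such difference. Its culture means were -0.02, -0.16 and -0.04 in IM2 and ran from -0.30 to 0.19 in the transfected lines. The mean difference was 0.00 (SE 0.08, 95% interval -0.18 to 0.18, limma adjusted p = 0.994). A fall as large as that of B2m (-0.42) lies outside this interval.

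**Figure D3:**
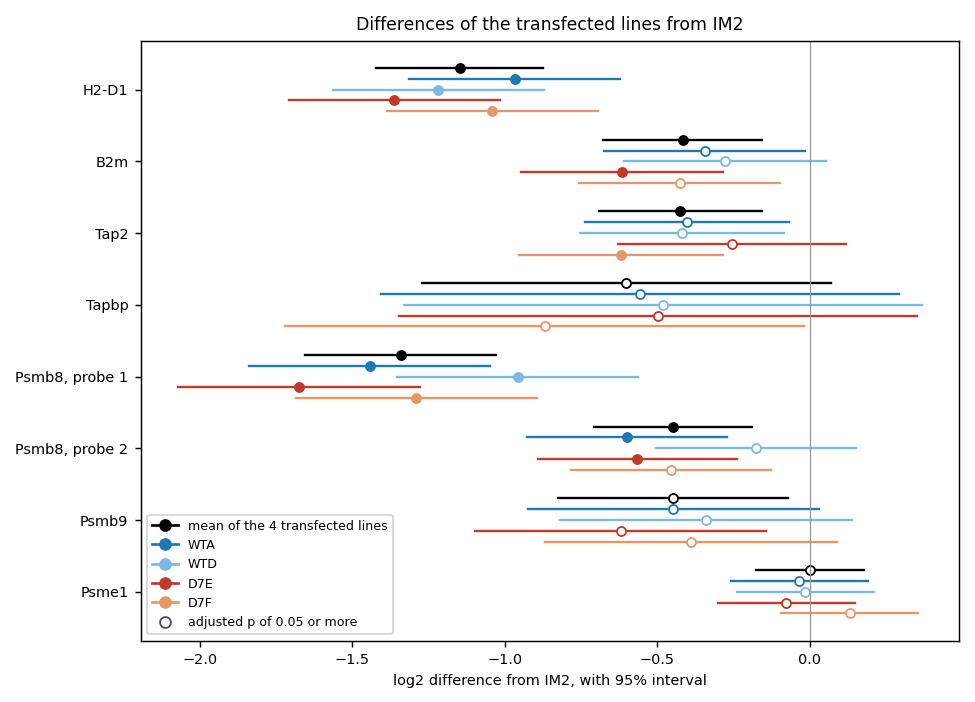
Log2 difference from IM2 (horizontal axis) of 8 member probes (vertical axis) for the mean of the 4 transfected lines and for each line, with 95% intervals from limma; filled points have an adjusted p under 0.05. All 5 differences of H2-D1 and of Psmb8 probe 1 lie between -1.68 and -0.96, and those of Psme1 lie around 0.

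Each transfected line was also set against IM2. These comparisons share the 3 IM2 cultures, so they are given side by side and not as separate evidence. H2-D1 and Psmb8 probe 1 fell in each of the lines. WTA had 3 of 8 member probes lower (11.5% of all probes called, 6.38% lower), and WTD had 2 of 8 (7.04% called, 4.96% lower). D7E had 4 of 8 (12.4% called, 8.22% lower) and D7F had 3 of 8 (4.51% called, 2.92% lower). No member probe was called higher in any of them.

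For WTA, WTD, D7E and D7F in that order, H2-D1 differed from IM2 by -0.97, -1.22, -1.36 and -1.04 (SE 0.16 each; limma adjusted p = 0.00223, 0.000706, 0.000297 and 0.00283). With the IM2 sign turned these H2-D1 differences were -0.59, -0.84, -0.98 and -0.66. Psmb8 probe 1 differed by -1.44, -0.96, -1.68 and -1.29 in the same order (SE 0.18 each; limma adjusted p = 0.000569, 0.00979, 0.000297 and 0.00233). Psmb8 probe 2 fell in WTA (-0.60, adjusted p = 0.0236) and D7E (-0.57, adjusted p = 0.0300), and was at -0.18 in WTD and -0.46 in D7F without passing. B2m passed in D7E alone (-0.62, limma adjusted p = 0.0210), with -0.35 in WTA, -0.28 in WTD and -0.43 in D7F. Tap2 passed in D7F (-0.62, limma adjusted p = 0.0400), with -0.40 in WTA, -0.42 in WTD and -0.26 in D7E. Passing in 1 line and not in another does not show a difference between the lines, which was tested directly.

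Those line calls rest on a spread shared by all 5 lines. Fitted with IM2 and 1 line alone, 0 member probes were called in WTA and D7F, 1 in WTD and 2 in D7E. In an alternative added after the data were seen, the 8 arrays under 65% inside the limits were left out and 1 orientation was made enough for every culture, which raised the probes tested to 17010. WTA, WTD and D7F then each had 1 called member probe and D7E had 2. H2-D1 lost its call there in WTA (adjusted p = 0.242), WTD (0.105) and D7F (0.176) at differences of -0.80, -1.11 and -0.95. With all arrays kept and 1 orientation enough, it was called in these lines (adjusted p = 0.0133, 0.00767 and 0.0182).

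No member probe passed a test among the transfected lines. The F test over the 4 lines called 0 of 8 (1.66% of all probes; 1 member probe at an unadjusted p under 0.05). The tests of the 6 pairs called 0 of 48, where the share of all probes called was 1.64% for D7E against WTA, 0.453% for D7F against WTD, 1.77% for WTA against WTD, 0.227% for D7E against D7F, 0.227% for D7E against WTD and 0.288% for D7F against WTA. Unadjusted p was under 0.05 for 1 member probe between D7E and WTA, 2 between WTA and WTD, 3 between D7E and WTD, and 0 in the other pairs. Mutant against wild-type called 0 of 8 (0.196% of all probes), high against low 0 of 8 (0.381%), and the interaction of form and level 0 of 8 (2.37%), with 1, 2 and 1 member probes at an unadjusted p under 0.05. With 3 cultures a line, smaller differences than these intervals cover may have been missed.

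For Psmb8 probe 1 the difference of WTA and D7E (high) from WTD and D7F (low) was -0.44 (log2, 95% interval -0.72 to -0.16, limma adjusted p = 0.290), and for probe 2 it was -0.27 (interval -0.50 to -0.03, adjusted p = 0.560). From the lowest, the line means of probe 1 ran D7E -1.63, WTA -1.40, D7F -1.25 and WTD -0.92, and those of probe 2 WTA -0.64, D7E -0.60, D7F -0.50 and WTD -0.22. Neighbours in these orders did not pass a test. H2-D1 ran D7E -1.17, WTD -1.03, D7F -0.85 and WTA -0.78, and its interaction of form and level, taken as the mean of D7E and WTD minus the mean of D7F and WTA, was -0.29 (interval -0.53 to -0.04, limma adjusted p = 0.243). D7E had the lowest line mean for 5 of the 8 probes, and WTD the highest of the transfected lines for 5. Both Psmb8 probes enter these counts. The same shares over all tested probes are not given here, so the counts are only described.

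Elsewhere in the proteasome, Psmb5 and Psmb7 rose. Of 7 tested catalytic partners and activators, 2 rose and none fell in the transfected lines, with a median difference of 0.23. Of all 9706 tested probes, 622 rose. Psmb5, the constitutive subunit that Psmb8 replaces, rose by 0.53 (SE 0.15, limma adjusted p = 0.0347), and Psmb7, the constitutive counterpart of Psmb10, by 0.28 (SE 0.08, adjusted p = 0.0429). Psmb5 ran from 0.22 to 1.09 in the transfected cultures and from -0.04 to 0.09 in IM2, with no overlap. Both were above 0 under all 28 alternatives, but the call held in 17 of 28 for Psmb5, which lost it without any 1 IM2 culture or WTD culture 2 or 3, and in 8 of 28 for Psmb7, which lost it without 9 of the 15 cultures and with the IM2 sign turned (0.25, adjusted p = 0.0581). Psmb6, the subunit that Psmb9 replaces, and Psmb10, the other immunoproteasome subunit, were at 0.21 and 0.16 without passing (adjusted p = 0.318 and 0.418).

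Other class I heavy chains also fell. Of 21 listed genes 11 had a probe and 6 were tested, with 9 probes. Of these, 6 probes of 4 genes fell (8.85% of all probes) and none rose (median difference -0.99). H2-M3, which presents formylated peptides, fell by 1.21 (SE 0.22, limma adjusted p = 0.00594; call kept in 17 of 21 alternatives and lost at -0.55 with the IM2 sign turned, adjusted p = 0.111). H2-Q7 fell by 1.13 (SE 0.12, adjusted p = 8.63e-05). Of 4 probes of H2-Q2, 3 fell by 0.74 (not called without IM2 culture 1), 1.03 and 1.11, and the fourth was at -0.92 (adjusted p = 0.0752). H2-Q10 was chosen after its values were seen and fell by 0.99 (adjusted p = 0.00204). The H2-Q genes are near copies of H2-D1, so their probes cannot be counted as independent of it. Whether the H2-M3 probe takes up RNA of H2-D1 was not tested. Fcgrt and Mr1, class I-like genes that are more distant, were at -0.11 and 0.17 without passing.

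Of the chaperones and trimming enzymes, 3 of 6 probes of 5 genes fell (8.85% of all probes) and none rose (median -0.44). They were Hspa5, the main chaperone of the endoplasmic reticulum (-1.45, SE 0.21, limma adjusted p = 0.000605), Calr (calreticulin, -0.996, SE 0.19, adjusted p = 0.00453) and Pdia3 (ERp57, -0.75, SE 0.19, adjusted p = 0.0170, not called without IM2 culture 1, or at -0.37 with the IM2 sign turned, adjusted p = 0.186). Calr and Pdia3 belong to the peptide-loading complex, and all 3 also serve the folding of other secretory proteins. A second Hspa5 probe was at -0.13 (adjusted p = 0.539), which goes against the first. Canx (calnexin) was at -0.10 without passing (limma adjusted p = 0.858). Erap1, which trims peptides, was at 0.50 without passing (adjusted p = 0.171). Its IM2 mean was -0.44, so its direction depends on the IM2 sign.

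Of 19 tested regulators of class I genes, 3 fell and none rose (median -0.05), beside 15.3% of all probes called and 8.85% called lower. The 3 were Atf1, a factor of cyclic AMP response elements (-1.17, limma adjusted p = 0.0356, not called without IM2 culture 1 or 3, or at -0.75 with the IM2 sign turned, adjusted p = 0.140), Nfyb, a subunit of the CCAAT-binding factor NF-Y (-0.79, adjusted p = 0.00260), and Jak1, a kinase of interferon receptors (-0.59, adjusted p = 0.00864). Irf1, which activates class I genes after interferon, was at 0.07, Stat2 at 0.29, Rela at 0.64 and Irf8 at 0.83, none of which passed. The IM2 means of Stat2, Rela and Irf8 were -0.35, -0.39 and -0.79, so their direction depends on the IM2 sign.

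Of 25 tested interferon-induced genes, 9 fell and 1 rose (median -0.29), beside 15.3% of all probes called and 8.85% called lower. Isg15, a ubiquitin-like modifier, fell by 1.38 (SE 0.11, limma adjusted p = 3.20e-05). From the lowest, its line means ran WTA -1.80, D7E -1.62, D7F -1.31 and WTD -0.62, against 0.04 in IM2. Isg15 passed high against low (-0.75, limma adjusted p = 0.00575) and the interaction of form and level (0.43, adjusted p = 0.0474). Of the 25 genes, 2 passed each of these tests, beside 0.381% and 2.37% of all probes. Ifitm3, a membrane protein that restricts virus entry, fell by 0.96 (SE 0.12, adjusted p = 0.000214), and Socs3, an inhibitor of cytokine signalling, by 0.82 (SE 0.20, adjusted p = 0.0177), though Socs3 was at -0.18 when the IM2 arrays were given the opposite sign. The gene that rose was Iigp1, an interferon-induced GTPase (0.68, adjusted p = 0.0121, not called without IM2 culture 1), named after its values were seen. With the IM2 sign turned it was at -0.21. These lists were drawn up with earlier results of these data known.

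**Figure D4:**
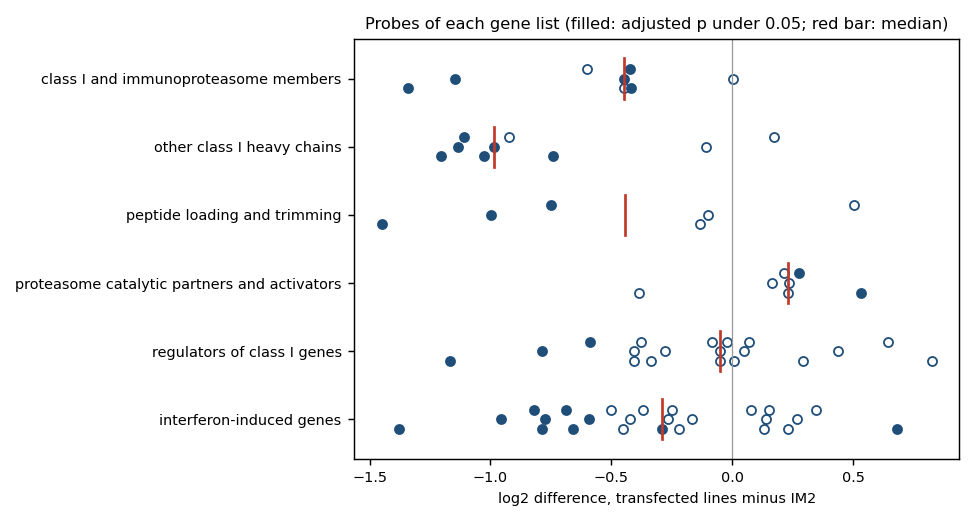
Log2 differences of the transfected lines from IM2 (horizontal axis) for the tested probes of the members and of 5 related gene lists (vertical axis); each point is 1 probe, filled where the adjusted p is under 0.05, and red bars are medians. Heavy chains have the lowest median (-0.99) and proteasome partners and activators lie mostly above 0.

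Markers of antigen-presenting and other blood cells were checked, because such cells express class I genes at high levels. Of the class II genes, 9 had a probe and none could be tested, with 48.3% of array values inside the limits in IM2 and 67.9% in the transfected lines, against 69.0% and 82.5% of all probes. Of the leukocyte markers, 12 had a probe and 1 (Laptm5) was tested, at -0.13 (limma adjusted p = 0.910). For the members these shares were 86.7% and 92.1%. Whether blood cells contributed to any difference was not tested.

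The probes whose culture values ran most like those of the members were then listed among 5028 other named probes measured in all 15 cultures. For Psmb8 probe 1 these were Cks1b (r = 0.95), Muc13 (0.94), Prdx4 (0.94), Per1 (0.93) and Gna13 (0.93). For H2-D1 they were Kdelr3 (0.97), Ndrg1 (0.97), Mxi1 (0.96), H2-Q7 (0.96) and Eno2 (0.95). All of these were also lower in the transfected lines than in IM2, from -0.57 for Mxi1 to -2.88 for Ndrg1. The correlations are across 15 cultures that share 1 reference, and the gap between IM2 and the other lines enters each of them.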

How the data were processed

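Log ratios of 60 arrays (15 cultures, 2 parts, 2 dye orientations) were used as deposited by the authors. Their base, their normalisation and what set the limits are not stated in the labels used here. The deposited log10 ratios (base inferred from limits at -2 and 2) were multiplied by 3.32 to give log2. Values at a limit were treated as not measured. Groups, cultures and dyes came from the labels. Title and channel source name different dyes for WTA culture 3 (part I), and the latter was followed. The description of 1 D7F part I array calls its level high, and the title was used.

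Probes were named through the platform annotation and Entrez identifiers of the RefSeq gene table (GRCm38.p6). Control probes were left out. Each part was fitted with limma 3.58.1 in R 4.3.3 (lmFit, eBayes) over all 5 lines with the culture as the unit, and p-values were adjusted (Benjamini-Hochberg) over 9706 probes of both parts, 8107 genes. The script was tested on simulated data. The spread behind each p-value is that among the cultures within a line. The labels do not say how the cultures were separated. Ratios carry no depth, so precision depends on the number of arrays.

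Named genes were all member probes, up to 3 genes with the largest called difference per related list, and the 5 probes most like each of 2 members. The members and lists were chosen with earlier results of these data known. Alternatives concerned the limits, centring, scaling, dyes, filters, model and each culture.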

Additional observations from a re-analysis of the deposited data

How the results depend on the processing

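Counts of called member probes are 5 (mean of the transfected lines against IM2), 3 (WTA), 2 (WTD), 4 (D7E) and 3 (D7F) as reported. For the mean of the transfected lines the count was 2 with limit values kept, 2 with 1 orientation enough, 2 on Cy3 arrays alone, 1 on Cy5 arrays alone, 3 with probes measured in 1 culture of every line, 2 with the line as a random block and 2 without the 8 arrays under 65% inside the limits, a setting that also made 1 orientation enough (17010 probes tested). Cy3 arrays alone gave 2 for D7E and 1 for WTD, and Cy5 arrays alone 1 for each line. With 1 orientation enough D7E had 2. Without the 8 arrays it had 2, and WTA, WTD and D7F had 1 each. With only the lines compared in the fit WTA and D7F had 0, WTD 1 and D7E 2. Leaving out 1 culture gave 2 to 5 for the mean (2 without IM2 culture 1 or 3), 2 to 3 for WTA, 2 for WTD, 2 to 5 for D7E (2 without IM2 culture 1) and 2 to 3 for D7F. Comparisons among transfected lines called 0 under every alternative run. Where no construction of the alternative accounts for a change, the cause was not tested.

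Over 28 alternatives the difference of Psmb8 probe 1 stayed called (-1.44 to -1.19), that of H2-D1 was called in 27 (-1.49 to -0.77), Psmb8 probe 2 in 20 and B2m in 14; Tap2 was called in 14 of 25. All these values stayed below 0. Psme1 changed sign, within 0.15 of 0: -0.0506 centred, -0.0117 centred and scaled, -0.15 with the IM2 sign turned, -0.11 on Cy3 arrays, and from -0.0404 to 0.0252 leaving out single cultures. With the replicate block the counts stayed at 5, 3, 2, 4 and 3. Deviations of same-numbered cultures correlated with r from -0.18 to 0.26 (part I) and from -0.15 to 0.21 (part II). These values cannot settle whether culture numbers pair the samples. Even the dye orientations of 1 transfected culture had a median r of only 0.13 (part I) and 0.12 (part II).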
